A study of Mus musculus with 8 samples.

Results

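The complement genes followed here are the chains of C1q (*C1qa*, *C1qb* and *C1qc*), the alternative-pathway components *Cfb* (factor B), *C3* and *Cfp* (properdin), the C1 inhibitor gene *Serping1*, and the anaphylatoxin receptor genes *C3ar1* and *C5ar1*. They are 9 of the 50615 genes in the expression table. They were chosen by name, with their normalized counts and knockout effects in these same libraries already known, so those values count as used in the choice. Their changes are therefore given as a description, with library values and standard errors and with no p-value. Calls of members counted further on rest on the same values and are no test of these genes. All 9 passed the filter on low counts, a sum of at least 10 counts over the 8 libraries, which left 17625 genes for testing. *Serping1* passed it through the libraries stimulated with LPS and MSU, and its counts without stimulation were between 1 and 4.

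Complement is a set of plasma and cell-surface proteins that coat microbes and dying cells and draw in phagocytes. C1q recognises antibody complexes and altered surfaces and starts the classical pathway, whereas factor B, C3 and properdin form and hold together the C3-cleaving enzyme of the alternative pathway. The liver supplies most plasma complement, but macrophages are a main source of C1q and properdin and make C3 and factor B locally when activated.

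The cells were bone marrow-derived macrophages (BMDMs) of C57BL/6 mice, cultured for 6 days in M-CSF (20 ng/ml), and their poly(A) RNA was sequenced. Every group carried floxed *Ncoa6*, the gene of a nuclear receptor coactivator. *Ncoa6* fl/fl cells without Cre are called *Ncoa6*-sufficient, and cells of *Ncoa6* fl/fl LysM CRE mice are called *Ncoa6*-KO. Cre was expressed from LysM (*Lyz2*), a gene of myeloid cells. Cells of each genotype were left in medium (unstimulated) or stimulated for 4 h with LPS (100 ng/ml), a component of the bacterial outer membrane, followed by 2 h with monosodium urate (MSU) crystals (200 µg/ml), the crystals of gout. There were 2 libraries in each of the 4 groups. The labels number the libraries 1 and 2 but do not say which numbers share an animal, litter or day, so a p-value covers only the spread between these libraries. Library totals ran from 25281955 to 33673552 expected counts.

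*Ncoa6* itself stood at 1515 and 1405 normalized counts in unstimulated *Ncoa6*-sufficient libraries and at 784 and 622 in the *Ncoa6*-KO libraries. With LPS and MSU it stood at 1297 and 1173 against 563 and 526. The log2 fold changes were -1.05 (SE 0.117, adjusted p = 0.00236) and -1.18 (SE 0.124, adjusted p = 0.00189; edgeR quasi-likelihood test with Benjamini-Hochberg adjustment), so part of the whole-gene signal remained in the cells labelled KO. In the study the loxP sites flank exon 7 of the gene. Whole-gene counts also take in the other exons, so they do not show how complete the deletion was. Normalized counts are expected counts scaled to a common effective library size. All 8 macrophage markers on the list were tested, and their sum was highest among the marker lists in every library. Without *Lyz2*, whose locus drives Cre and whose mean was 240995 against 119774 in unstimulated and 243832 against 126325 in stimulated cells of the 2 genotypes, that sum was 177863 to 181214 in unstimulated *Ncoa6*-sufficient and 137879 to 161001 in unstimulated *Ncoa6*-KO cells. After stimulation the same sum was 267975 to 274109 and 235586 to 251049.7. The stromal list (7 of 7 tested) summed to 391 to 436 and 143 to 471 without stimulation, and to 917 to 967 and 353 to 841 with LPS and MSU. The endothelial list (4 of 5 tested, almost all of it *Kdr*) summed to 540.4 to 715 and 385 to 395 without stimulation, and to 6384 to 6803 and 3040.2 to 5382 with LPS and MSU. Neutrophil markers summed to 439 to 991 over the 8 libraries, dendritic cell markers to 18.9 to 248 and B cell markers to 8.39 to 50.3. The hepatocyte, mast cell and T and NK cell lists had no tested gene and summed to at most 4.16. The part of these differences in the complement values was not tested, and in bulk RNA fewer cells of a type and less RNA per cell cannot be told apart.

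The 3 C1q chains lie side by side on the minus strand of chromosome 4 (GRCm38): *C1qb* at 4:136880129-136886187, *C1qc* at 4:136889804-136893065 and *C1qa* at 4:136895917-136898803. *C3* is at 17:57203970-57228136, also on the minus strand. RefSeq upstream sequences on GRCm38.p6 matched 6 of the 9 genes. *Cfp* and *C5ar1* were among these and lower in *Ncoa6*-KO cells without overlap in both conditions, but are not printed. The sequences of *C1qb*, *C1qc* and *C3* are shown as examples, not as the full set that moved with the genotype. They are read on the minus strand, 5′ to 3′, over the 250 bases before the start (*C1qb* at chr4:136886201-136886450, *C3* at chr17:57228137-57228386), and the *C1qc* stretch is the 99 bases at chr4:136893066-136893164 that end 152 bases before its start.
C1qb: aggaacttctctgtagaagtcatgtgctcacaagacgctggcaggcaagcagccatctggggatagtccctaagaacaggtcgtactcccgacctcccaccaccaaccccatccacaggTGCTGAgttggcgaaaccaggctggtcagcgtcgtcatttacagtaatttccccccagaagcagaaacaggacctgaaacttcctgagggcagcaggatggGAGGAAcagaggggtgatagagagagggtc
C1qc: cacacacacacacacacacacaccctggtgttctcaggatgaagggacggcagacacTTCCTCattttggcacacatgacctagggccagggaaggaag
C3: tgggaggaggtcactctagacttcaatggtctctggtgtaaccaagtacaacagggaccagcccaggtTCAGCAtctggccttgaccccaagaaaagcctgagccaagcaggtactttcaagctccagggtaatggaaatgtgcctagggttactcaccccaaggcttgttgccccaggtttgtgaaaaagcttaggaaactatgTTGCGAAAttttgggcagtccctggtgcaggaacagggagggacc

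Capitals mark matches to 6 short motifs searched on both strands: GAGGAA (PU.1), TGCTGA (core of the Maf site), GAAANNGAA (IRF repeat), TTCNNNGAA (GAS), GGANTTTCC (kappaB) and TTGCNNAA (C/EBP). GAGGAA occurred in the 250 bases before the start of *C1qb* and, as its reverse complement, of *C1qc*, and was present in 23.3% of 32851 RefSeq promoters. TGCTGA occurred in *C1qb* and, reversed, in *C3*, and was present in 16.1%. TTGCNNAA occurred in *C3* and in 9.56% of the promoters. Of the other matched members, *C3ar1* held TGCTGA, *C5ar1* held TGCTGA and the IRF repeat (7.13% of promoters), and *Cfp* held none of the 6. For *C5ar1* the start annotated by GENCODE lies further out. Only the 48 bases that end 203 bases before its RefSeq start are outside that annotated gene. Both *C5ar1* matches, at 66 to 58 and 17 to 12 bases before the RefSeq start, fall inside it. The GAS (7.02%) and kappaB (1.07%) letters were in none of the 6 matched members, and these matches describe letters, not bound sites.

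C1q is assembled from its 3 chains, and all of them were lower in *Ncoa6*-KO than in *Ncoa6*-sufficient BMDMs in both conditions, by 1.73-fold to 2.03-fold. *C1qa* stood at 3892 and 2743 normalized counts in unstimulated *Ncoa6*-sufficient libraries and at 1913 and 1345 in the *Ncoa6*-KO libraries. In stimulated cells it stood at 5239.6 and 3684 against 3049 and 2113. Neither comparison of *C1qa* overlapped, and the log2 fold changes of *Ncoa6*-KO against *Ncoa6*-sufficient were -1.02 (SE 0.236) without stimulation and -0.79 (SE 0.236) with LPS and MSU.

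*C1qb* was the most abundant of the chains per kilobase of exon. Its libraries read 25762 and 17538 without stimulation in *Ncoa6*-sufficient cells and 13201 and 8550.2 in *Ncoa6*-KO cells, then 42118 and 29663 against 23603 and 14705 with LPS and MSU. The groups again did not overlap, with log2 fold changes of -0.99 (SE 0.277) and -0.91 (SE 0.276). *C1qc* read 21318 and 14389 against 11078 and 7638 without stimulation, and 28424 and 19649 against 15822 and 10836 with LPS and MSU. Its log2 fold changes were -0.93 (SE 0.255) and -0.85 (SE 0.255), and its genotypes did not overlap in either condition.

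**Figure D1:**
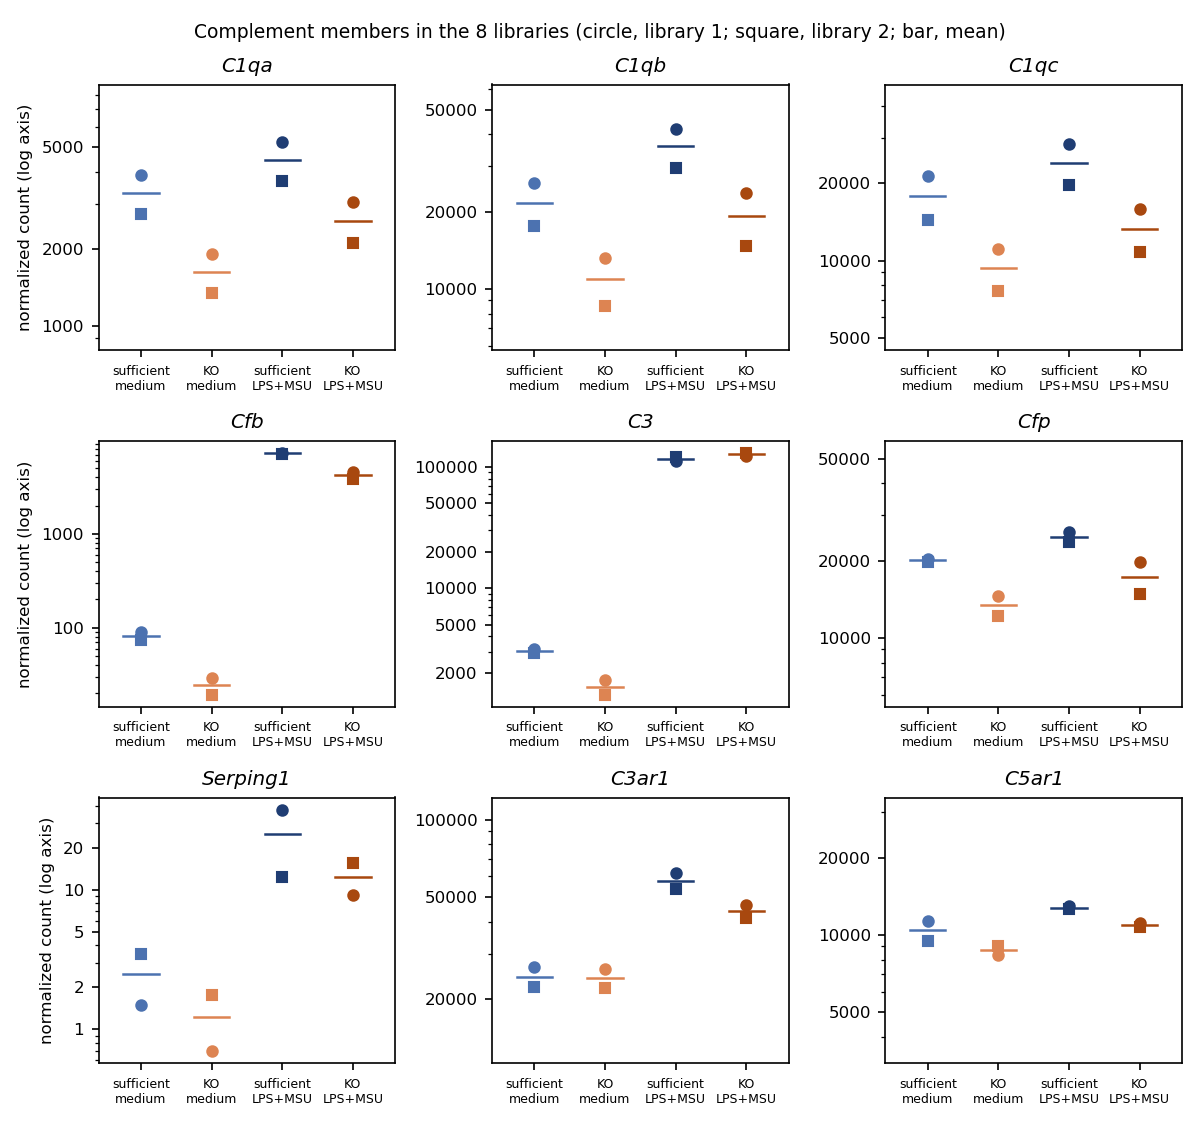
Normalized counts (log axis) of the 9 complement genes in each of the 8 libraries, by group; circles are libraries numbered 1, squares those numbered 2, and bars are means of 2 libraries. The C1q chains sit lower in *Ncoa6*-KO than in *Ncoa6*-sufficient cells in both conditions, with the library numbered 1 above the library numbered 2 in all 4 groups, while *C3* is lower without stimulation (1540.0 against 3011) and not with LPS and MSU (126408 against 116151).

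The C1q chains shared a spread between libraries of 1 group. In every group the library numbered 1 held more of each chain than the library numbered 2, by 1.42-fold to 1.61-fold, beside the 1.73-fold to 2.03-fold between the genotypes. Leaving out 1 library at a time moved the log2 fold change of *C1qb* between -1.34 and -0.69 without stimulation and between -1.30 and -0.61 with LPS and MSU. That of *C1qa* moved between -1.30 and -0.75 and between -1.09 and -0.52, and that of *C1qc* between -1.23 and -0.62 and between -1.17 and -0.57. The genotypes did not overlap, so leaving out 1 library could not turn the sign, and only the sizes are informative here. The lowest sizes came without *Ncoa6*-sufficient library 1 or *Ncoa6*-KO library 2.

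The response of C1q to LPS and MSU depended on how the libraries were scaled. With the scaling by trimmed mean of M-values (TMM) the chains were higher after LPS and MSU in *Ncoa6*-sufficient cells, with log2 fold changes of 0.43 for *C1qa*, 0.73 for *C1qb* and 0.43 for *C1qc*, but with library totals alone the values were -0.25, 0.06 and -0.24. In *Ncoa6*-KO cells they were 0.66, 0.82 and 0.51 with TMM and 0.03, 0.18 and -0.12 with library totals. TMM factors were 1.23 to 1.29 in the libraries without stimulation and 0.766 to 0.829 in those with LPS and MSU, and dropping them shifted the median of all tested genes by -0.66 in *Ncoa6*-sufficient and -0.63 in *Ncoa6*-KO cells on the log2 scale. The same change of scaling moved the knockout comparisons by only 0.03 and 0.07. As a share of all counts, C1q took 0.214% and 0.147% in unstimulated *Ncoa6*-sufficient libraries and 0.198% and 0.143% with LPS and MSU. In *Ncoa6*-KO cells the shares were 0.112% and 0.0768%, then 0.117% and 0.0782%, so these shares separated the genotypes and not the conditions.

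Per kilobase of exon, *C1qb* made up 60.0% to 66.5% of the C1q signal over the 8 libraries, *C1qc* 24.8% to 30.2% and *C1qa* 8.62% to 10.1%. The *C1qb* share was 60.0% to 61.6% without stimulation and 63.9% to 66.5% with LPS and MSU. These shares depend on the length used. With the longest transcript in place of all exons, *C1qb* made up 50.7% to 57.8%, because the *C1qc* exons cover 1.931 kb together and 1.203 kb in the longest transcript.

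Likeness to the mean of the C1q chains was measured as the root mean square difference of centred log2 values over the 8 libraries, among 11219 genes with an average of 50 or more normalized counts. The nearest were *Atrnl1* (0.125), *Clec4a2* (0.180), a C-type lectin receptor of myeloid cells, *Pf4* (0.193), a platelet chemokine also made by macrophages, *Gm15931* (0.194) and *Sdc3* (0.198), a syndecan. Among the other 11218 genes, *C1qc* was the nearest to *C1qa* (0.0577) and *C1qb* the next (0.133), while *Cfp* came at rank 20 (0.267).

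**Figure D2:**
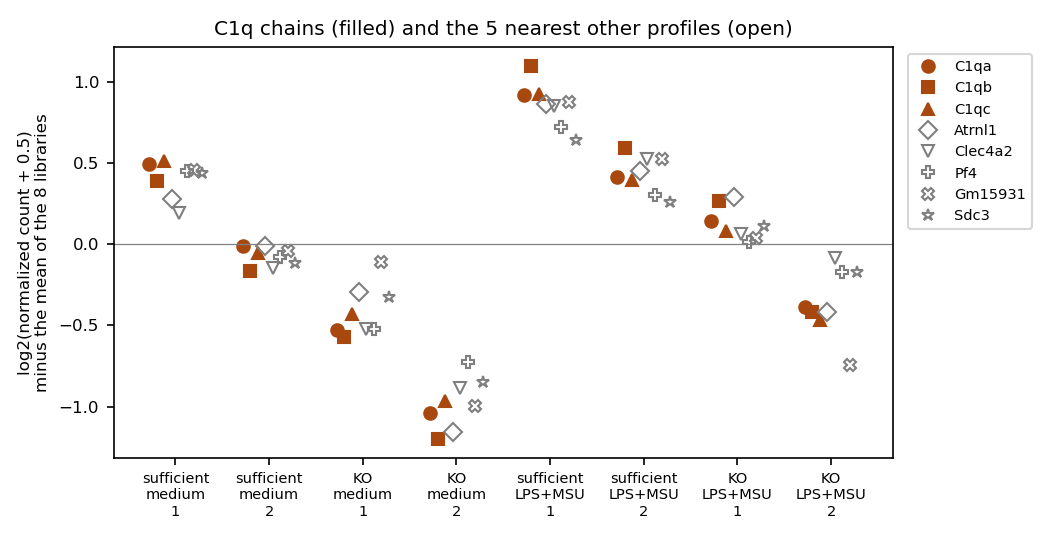
Centred log2(normalized count + 0.5) of the 3 C1q chains and the 5 genes nearest to their mean, over the 8 libraries in group order. All 8 profiles lie lower in *Ncoa6*-KO than in *Ncoa6*-sufficient cells of the same condition and higher in the library numbered 1 of each group, with a root mean square difference of 0.125 to 0.198 for the 5 neighbours in profile.

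The well-expressed genes next to the C1q cluster had knockout effects near 0. *Zbtb40*, 80929 bp away, had log2 fold changes of 0.06 (SE 0.137, adjusted p = 0.913) without stimulation and 0.02 (SE 0.144, adjusted p = 0.974) with LPS and MSU. *Kdm1a*, a histone demethylase gene 277406 bp to the other side, had 0.07 (SE 0.0981, adjusted p = 0.860) and 0.10 (SE 0.0985, adjusted p = 0.664; edgeR, Benjamini-Hochberg). The closer genes *Epha8* (30616 bp) and *Ephb2* (44141 bp) had at most 16.0 normalized counts in any library. *Epha8* read 0 and 2.58 in unstimulated *Ncoa6*-sufficient against 16.0 and 14.0 in *Ncoa6*-KO libraries and was not called (adjusted p = 0.0981, edgeR).

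Of the alternative-pathway genes, *Cfb* differed most between the genotypes. Factor B is the protease that, bound to C3b, cleaves further C3. *Cfb* lies in the class III region of the major histocompatibility complex, at 17:34856374-34862518 on the minus strand. It stood at 90.1 and 73.1 normalized counts in unstimulated *Ncoa6*-sufficient libraries and at 29.2 and 19.3 in the *Ncoa6*-KO libraries. With LPS and MSU it stood at 7265 and 7161 against 4592 and 3850.3. Both comparisons were without overlap, and *Cfb* was 3.3-fold lower without stimulation (log2 fold change -1.72, SE 0.217) and 1.71-fold lower with LPS and MSU (log2 fold change -0.77, SE 0.121).

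LPS and MSU raised *Cfb* in both genotypes under every scaling tried. The log2 fold change was 6.46 (SE 0.163) in *Ncoa6*-sufficient and 7.41 (SE 0.183) in *Ncoa6*-KO cells with TMM, and 5.79 and 6.78 with library totals. The rise on the log2 scale was thus 0.95 larger (SE 0.252) in *Ncoa6*-KO cells, which started lower and also ended lower. *Cfb* shares exons with the readthrough gene *Gm20547*, which had at most 13 counts in any library. Its neighbour *Nelfe*, 2 bp away, had log2 fold changes of -0.04 (adjusted p = 0.915) and 0.15 (adjusted p = 0.473), *Skiv2l*, 6164 bp away on the same side, had -0.14 and -0.14 (adjusted p = 0.607 and 0.507), and *C2*, 86 bp away on the other, had -0.33 (adjusted p = 0.926) and -0.74 (adjusted p = 0.600; edgeR, Benjamini-Hochberg). *C2* encodes the classical-pathway counterpart of factor B and had at most 33.1 normalized counts in a library.

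All complement pathways meet at *C3*, whose level was lower in unstimulated *Ncoa6*-KO cells and not with LPS and MSU. It read 3125 and 2897 in unstimulated *Ncoa6*-sufficient libraries and 1757 and 1323 in the *Ncoa6*-KO libraries, without overlap (log2 fold change -0.97, SE 0.147). After stimulation it read 111172 and 121131 against 123206 and 129611. There the *Ncoa6*-KO libraries were the higher ones, also without overlap, by a log2 fold change of 0.12 (SE 0.144) that was smaller than its standard error. LPS and MSU raised *C3* by 38.6-fold in *Ncoa6*-sufficient and 82.0-fold in *Ncoa6*-KO cells (log2 fold changes 5.27, SE 0.173, and 6.36, SE 0.182), and by 4.60 and 5.73 on the log2 scale with library totals. The knockout effect was 1.09 higher on the log2 scale (SE 0.206) with LPS and MSU than without stimulation.

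Properdin, the product of *Cfp*, stabilises the alternative-pathway convertase. *Cfp* lies on the X chromosome at X:20925454-20931555. It read 20239 and 19769.5 in unstimulated *Ncoa6*-sufficient libraries and 14543 and 12180.3 in the *Ncoa6*-KO libraries, then 25816 and 23724 against 19802 and 14777 with LPS and MSU. The genotypes did not overlap, with log2 fold changes of -0.58 (SE 0.147) and -0.52 (SE 0.147). The *Cfp* response to LPS and MSU was 0.31 and 0.37 in the 2 genotypes with TMM and turned to -0.36 and -0.26 with library totals.

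**Figure D3:**
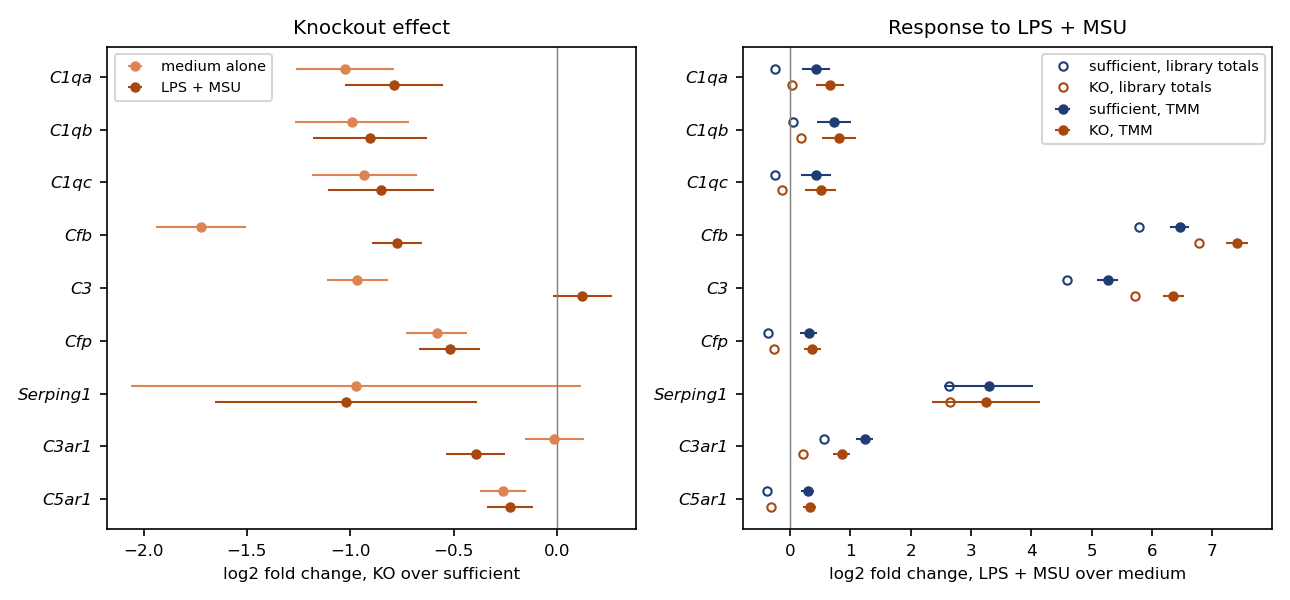
Left, log2 fold changes of *Ncoa6*-KO against *Ncoa6*-sufficient cells for the complement genes without stimulation and with LPS and MSU; right, responses to LPS and MSU in each genotype, with TMM scaling (filled, bars are SE) and with library totals (open). *Cfb* (-1.72) lies lowest without stimulation, with *C3* (-0.97) among the C1q chains, and the open symbols of the C1q chains, *Cfp* and *C5ar1* lie near or below 0.

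By the same measure of likeness over the same 11219 genes, *Cfb* was nearest to *Cp*, the ceruloplasmin gene (0.233), and next to *Gbp2* (0.248), *Gm5970* (0.250), *Tgtp2* (0.265) and *Gbp3* (0.289); Gbp genes encode interferon-induced guanylate-binding proteins. *C3* was nearest to *Traf1* (0.165), an adaptor of tumour necrosis factor receptors, and next to *Gbp7* (0.174), *Ifit3b* (0.197), *Usp18* (0.249) and *Ifit3* (0.267), the last 3 known as interferon-induced. The difference between *Cfb* and *C3* was 0.712, and a large response to LPS and MSU weighs heavily in this measure.

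*Serping1* encodes the C1 inhibitor, which removes the active proteases from C1q. It was near the detection limit without stimulation, with 2 and 4 counts in the *Ncoa6*-sufficient and 1 and 2 in the *Ncoa6*-KO libraries, so no fold is given. In stimulated cells it had 27 and 9 counts against 7 and 11. The genotypes overlapped there, and at this depth no difference between them could be seen.

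The receptors for the C3a and C5a fragments showed smaller differences between the genotypes. *C3ar1* read 26524 and 22247 in *Ncoa6*-sufficient and 26234 and 22118 in *Ncoa6*-KO libraries without stimulation, which overlapped (log2 fold change -0.01, SE 0.141). With LPS and MSU it read 61757 and 53450.3 against 46435 and 41264, without overlap, and was 1.31-fold lower in *Ncoa6*-KO cells (log2 fold change -0.39, SE 0.141). The response of *C3ar1* was 1.24 (SE 0.143) in *Ncoa6*-sufficient and 0.86 (SE 0.142) in *Ncoa6*-KO cells, and 0.57 and 0.22 with library totals.

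*C5ar1*, the receptor that draws neutrophils and macrophages towards C5a, read 11364 and 9437 against 8374 and 9010.3 without stimulation, and 12913 and 12612 against 11078 and 10744 with LPS and MSU. The groups did not overlap, although the log2 fold changes of -0.26 (SE 0.111) and -0.23 (SE 0.111) were among the smallest of the 9. Its response was 0.30 in *Ncoa6*-sufficient and 0.33 in *Ncoa6*-KO cells with TMM and reversed to -0.38 and -0.31 with library totals.

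Counted over the 9 genes, 7 were lower in both *Ncoa6*-KO libraries than in both *Ncoa6*-sufficient libraries without stimulation, all but *Serping1* and *C3ar1*, and 24.5% of all tested genes were separated in that way. After stimulation 7 were lower without overlap, all but *C3* and *Serping1*, beside 22.7% of all tested genes. *Cfb* and *C3* were called lower without stimulation (adjusted p under 0.05; edgeR), where 1.88% of tested genes were called and 1.3% were called lower. In stimulated cells *Cfb* alone was called lower, beside 3.59% called and 1.63% called lower. Without unstimulated *Ncoa6*-sufficient library 1 neither was called, and in stimulated cells *Cfb* was not called without *Ncoa6*-sufficient library 1 or *Ncoa6*-KO library 2. Since the genes were picked with these values known, the calls are no test of them, and nothing is read from the counts. Median log2 fold changes of the 8 members with an average of 50 or more normalized counts were -0.95 and -0.65 in the 2 conditions, against -0.04 and 0.00 for all 11219 genes at that level. An exact two-sided permutation test of 2 libraries against 2 cannot go below p = 0.333.

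For the response to LPS and MSU, 7 of the 9 were higher without overlap in *Ncoa6*-sufficient cells and 8 in *Ncoa6*-KO cells, beside 35.1% and 35.4% of all tested genes. With TMM scaling 6 and 7 were called higher, where 24.7% and 25.2% of all genes were called higher and 55.2% and 53.1% were called in either direction. *Serping1* is in each of these counts of members. It passed the filter on low counts only through the stimulated libraries, so its place in them was not independent of that filter. With library totals 4 of the 9 were called in *Ncoa6*-KO cells, where 11853 of all 17625 tested genes were called and 2540 were called higher. With this scaling the direction turned for *C1qc*, *Cfp* and *C5ar1* in both genotypes and for *C1qa* in *Ncoa6*-sufficient cells. For a response that differed between the genotypes edgeR called no member and 0% of all tested genes (1045 at an unadjusted p under 0.05). DESeq2 called 1 member and 43 genes in all. The comparisons share libraries: each group enters a knockout comparison and a response.

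Levels per kilobase of exon placed most of these genes high among 17587 genes with a length. By the mean over the 8 libraries *C1qb* ranked 55, *C3* 94, *Cfp* 103, *C3ar1* 139, *C1qc* 146, *C5ar1* 331, *C1qa* 486, *Cfb* 1275 and *Serping1* 13762. *C1qb* stood highest of the 9 in 3 groups, with 19899, 9996 and 32987 normalized counts per kb in unstimulated *Ncoa6*-sufficient, unstimulated *Ncoa6*-KO and stimulated *Ncoa6*-sufficient cells. In *Ncoa6*-KO cells with LPS and MSU, *C3* came above it at 24579 ± 881 (SD, n = 2) against 17605 ± 5784. *C3* itself rose from 585 to 22584 per kb in *Ncoa6*-sufficient cells. In unstimulated *Ncoa6*-sufficient cells *C1qc* stood at 9246 per kb of exon, under *Cfp* at 11523. With the longest transcript as the length, *C1qc* stood at 14841 there, above *Cfp* at 12227.

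The other complement genes, a list of 49 components, regulators and receptors, gave 32 tested genes. With medium alone none was called between the genotypes (edgeR; 10 genes at an unadjusted p under 0.05, 2 called by DESeq2, 0 by limma-voom, and a smallest adjusted p of 0.0741). Of all 17625 tested genes 1.88% were called there, and 2262 had an unadjusted p under 0.05. With LPS and MSU 3 were called lower in *Ncoa6*-KO cells and 29 did not pass, where 1.63% of all tested genes were called lower and 3.59% in either direction. Among the 15 with an average of 50 or more normalized counts, the median log2 fold change was -0.13 without stimulation and -0.15 with LPS and MSU.

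The 3 called genes were a pattern-recognition gene and both alpha chains of the complement receptors that take up C3b fragments. *Fcna*, the gene of ficolin A, which starts the lectin pathway, read 334 and 386 in *Ncoa6*-sufficient and 234 and 199 in *Ncoa6*-KO libraries with LPS and MSU (log2 fold change -0.73, SE 0.156, adjusted p = 0.0305). With medium alone it read 315 and 312 against 229 and 183, with a log2 fold change of -0.60 (SE 0.147) that was not called (adjusted p = 0.0741; edgeR, Benjamini-Hochberg).

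*Itgam*, the alpha chain of complement receptor 3, read 22323 and 25290.2 against 15794 and 17686 with LPS and MSU (log2 fold change -0.51, SE 0.118, adjusted p = 0.0412). *Itgax*, the alpha chain of complement receptor 4, read 991 and 1005 against 511 and 686 (log2 fold change -0.74, SE 0.151, adjusted p = 0.0255). Both also lay lower without stimulation, at 20237 and 22737 against 15769 and 16611 for *Itgam* (-0.41, SE 0.117, adjusted p = 0.125) and at 759.5 and 756 against 444 and 573 for *Itgax* (-0.58, SE 0.147, adjusted p = 0.0833). Each of these edgeR calls was lost when only the 4 LPS and MSU libraries were fitted and without either unstimulated *Ncoa6*-sufficient library or any 1 of the 4 stimulated libraries, and that of *Itgam* also with library totals. The adjusted p over the alternatives ran from 0.00028 to 0.241 for *Fcna*, from 0.000176 to 0.184 for *Itgam* and from 3.97e-07 to 0.144 for *Itgax*. *Itgam* overlaps *Gm49368*, which had 17 to 95 counts in the libraries, and it is also on the macrophage marker list. *Itgb2*, the beta chain gene on the same list of receptors, lay slightly higher in *Ncoa6*-KO cells. Its log2 fold changes were 0.17 (SE 0.143, adjusted p = 0.714) without stimulation and 0.20 (SE 0.143, adjusted p = 0.536; edgeR) with LPS and MSU. *Vsig4*, another receptor gene, had 1.24 and 0.25, with at most 19.6 normalized counts in a library.

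**Figure D4:**
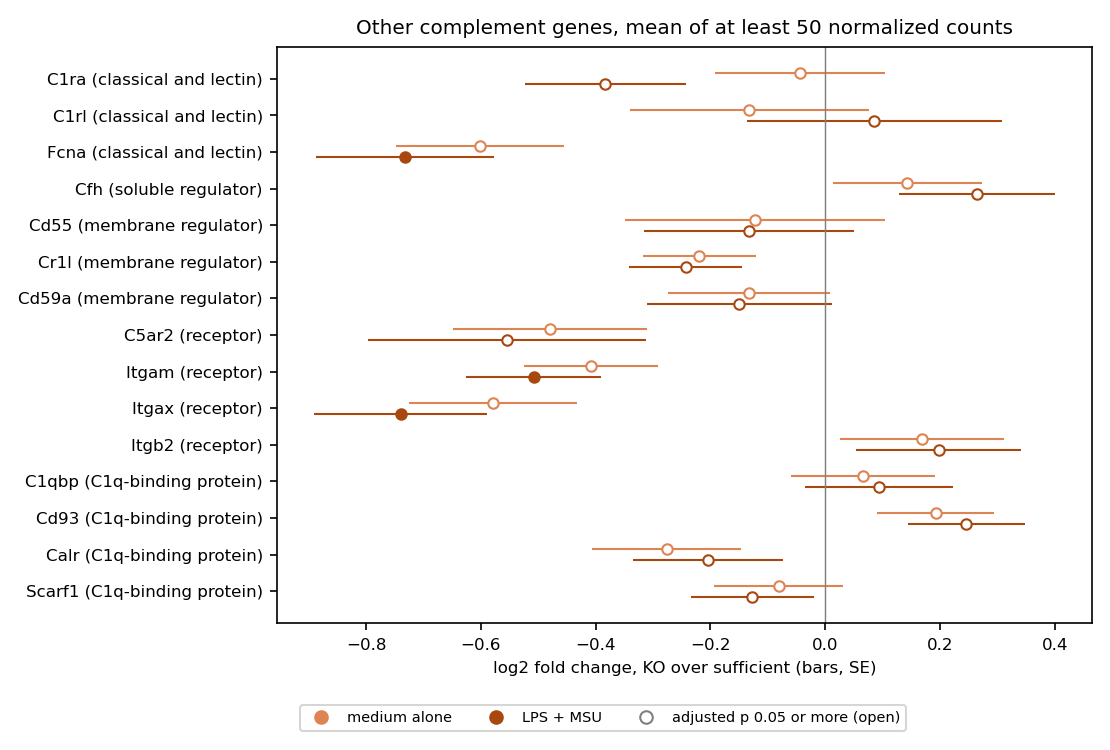
Log2 fold changes of *Ncoa6*-KO against *Ncoa6*-sufficient cells (bars are SE) for the 15 other complement genes with an average of 50 or more normalized counts, in both conditions; filled points passed an adjusted p of 0.05. *Fcna* (-0.73), *Itgam* (-0.51) and *Itgax* (-0.74) with LPS and MSU are the 3 filled points.

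Of these 32 genes 43.8% were called for a response to LPS and MSU in *Ncoa6*-sufficient and 40.6% in *Ncoa6*-KO cells, beside 55.2% and 53.1% of all tested genes; 24.7% and 25.2% of all genes were called higher. Of 11 classical and lectin genes 6 rose in *Ncoa6*-sufficient and 5 in *Ncoa6*-KO cells, and none fell. Of those that rose, only *C1ra* averaged 50 or more normalized counts, and *C1rb* passed the filter on low counts only through the stimulated libraries. Among 5 membrane regulators 2 rose and 1 fell in each genotype. Among 6 receptors, in addition to the members, 1 rose and 1 fell in *Ncoa6*-sufficient cells and 1 fell in *Ncoa6*-KO cells, and neither of the 2 terminal-pathway genes passed. Of 3 soluble regulators 1 fell in *Ncoa6*-sufficient and none in *Ncoa6*-KO cells, and of 5 proteins described as binding C1q 1 rose and 1 fell in *Ncoa6*-sufficient and 2 rose and 2 fell in *Ncoa6*-KO cells. The counts over the list were 10 higher and 4 lower in *Ncoa6*-sufficient cells and 9 higher and 4 lower in *Ncoa6*-KO cells with TMM scaling, and with library totals *Itgax* turned from higher to -0.27 in *Ncoa6*-sufficient cells and *Calr* to -0.23 in *Ncoa6*-KO cells.

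*Cd55*, decay-accelerating factor, which takes apart C3-cleaving enzymes on the cell's own surface, rose most among the well-expressed ones. It read 84.1 and 53.3 without stimulation and 482 and 410.4 with LPS and MSU in *Ncoa6*-sufficient cells (log2 fold change 2.69, SE 0.205, adjusted p = 6.53e-07), and 70.9 and 55.3 against 423 and 390.3 in *Ncoa6*-KO cells (2.68, SE 0.207, adjusted p = 7.76e-07; edgeR, Benjamini-Hochberg). *Scarf1*, a scavenger receptor that binds C1q on dying cells, rose by 2.00 (SE 0.112) and 1.95 (SE 0.112) on the log2 scale. *C1ra*, which encodes the protease C1r that C1q carries, went from 309 and 298 to 1137 and 943 in *Ncoa6*-sufficient cells (1.78, SE 0.146) and from 307 and 281 to 907 and 687 in *Ncoa6*-KO cells (1.44, SE 0.146). *C1ra* has a near-copy, *C1rb*, so reads could be split between them.

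Among those that fell, *C5ar2*, the other C5a receptor, read 206 and 187 without stimulation and 58.2 and 51.0 with LPS and MSU in *Ncoa6*-sufficient cells (log2 fold change -1.84, SE 0.197, adjusted p = 1.04e-05), and 151 and 130.0 against 41.8 and 32.2 in *Ncoa6*-KO cells (-1.92, SE 0.211, adjusted p = 1.44e-05; edgeR, Benjamini-Hochberg). *Cd93*, a surface protein first described as a C1q receptor, fell by 0.71 (SE 0.102) and 0.66 (SE 0.102) on the log2 scale. *Cd59a*, an inhibitor of the membrane attack complex, fell by 0.63 (SE 0.151, adjusted p = 0.00419) and 0.65 (SE 0.152, adjusted p = 0.004), and its call in *Ncoa6*-sufficient cells was lost without *Ncoa6*-sufficient medium library 1 (adjusted p = 0.0552). These 6 genes kept their direction with library totals. That scaling moves responses downwards, so for the genes that fell this was fixed in advance. No gene of the 32 was called for a response that differed between the genotypes (1 at an unadjusted p under 0.05, and 0 by DESeq2).

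A list of 10 transcription factors known to act on complement genes or in macrophages was read beside the members. With medium alone none was called between the genotypes (edgeR), beside 1.88% of all tested genes. At an unadjusted p under 0.05 there were 2, beside 2262 of all 17625 tested genes. After stimulation 1 was called lower, *Maf*, whose product is a large Maf factor of macrophages. Of all tested genes 3.59% were called there and 1.63% were called lower.

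*Maf* read 8022 and 7385 in *Ncoa6*-sufficient and 7564 and 6915 in *Ncoa6*-KO libraries without stimulation, a log2 fold change of -0.09 (adjusted p = 0.870). In stimulated cells it read 16528 and 13257 against 8066 and 6581, a log2 fold change of -1.02 (SE 0.137, adjusted p = 0.00472; 4.41e-15 to 0.0692 over the alternatives, past 0.05 only without *Ncoa6*-KO LPS and MSU library 2). The difference between the knockout effects on *Maf* in the 2 conditions was not called by edgeR (adjusted p = 0.337). It was called in 3 of 15 alternatives, DESeq2 among them (lowest adjusted p = 1.32e-05). A link of *Maf* to the levels of the C1q chains was not tested.

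*Irf8* read 8885 and 5113 against 4181 and 2551 with LPS and MSU (-1.06, SE 0.259) and did not pass (adjusted p = 0.0528; edgeR), although it did in 7 of 16 alternatives. *Spi1*, which encodes PU.1, had -0.13 and 0.01. For *Nr1h3*, the liver X receptor gene, a nuclear receptor, the values were -0.48 (adjusted p = 0.103) and -0.27. *Rxra*, its partner receptor, had 0.15 and 0.16, and *Ppard* -0.21 and 0.32. The NF-kappaB genes *Rela* (-0.06 and 0.04) and *Nfkb1* (-0.18 and -0.18) had small values, and *Irf1* (-0.51 and 0.24) and *Cebpb* (-0.22 and 0.37) had values of opposite sign in the 2 conditions that edgeR did not call. *Irf1* without stimulation was called in 4 of 16 alternatives, DESeq2 among them, and *Cebpb* with LPS and MSU in 2 of 16. For a response that differed between the genotypes edgeR called none of the 10 (4 at an unadjusted p under 0.05, beside 1045 of all 17625 tested genes). DESeq2 called 1 of them, *Maf*, beside 43 genes in all.

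**Figure D5:**
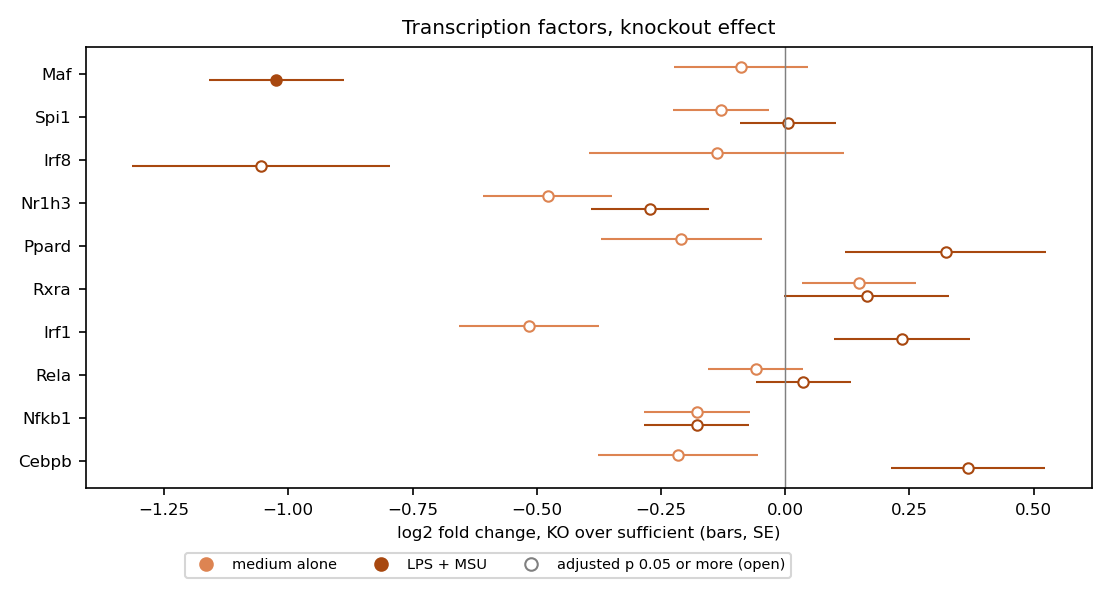
Log2 fold changes of *Ncoa6*-KO against *Ncoa6*-sufficient cells (bars are SE) for 10 transcription factors, in both conditions; filled points passed an adjusted p of 0.05. *Maf* (-1.02) with LPS and MSU is the 1 filled point, and *Irf8* (-1.06) lies beside it unfilled with an SE of 0.259.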

How the data were processed

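The study compared *Ncoa6*-sufficient and *Ncoa6*-KO BMDMs by poly(A) RNA-seq (TruSeq stranded mRNA, paired-end NovaSeq), 2 libraries in each of 4 groups. Per the labels and the study's methods, the authors aligned reads with STAR 2.7.3a to GRCm38 and deposited RSEM 1.3.3 expected counts per gene; the submitters' processing notes also name MultiQC and DESeq2. Estimated counts split reads between near-identical genes, so *C1ra*/*C1rb*, *C1s1*/*C1s2*, *C4a*/*C4b*, *Cd59a*/*Cd59b* and *Cd55*/*Cd55b* are uncertain.

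The counts were rounded, the 17625 of 50615 genes whose summed counts reached 10 were kept and all 4 groups were fitted together in edgeR 4.0.16 (quasi-likelihood, TMM, R 4.3.3) with 4 residual degrees of freedom, Benjamini-Hochberg adjustment over all tested genes and a threshold of 0.05. Standard errors came from the F statistics. Depth was 25281955 to 33673552 counts per library, and replicate libraries correlated at 0.974 to 0.984 over tested genes. Few counts lay behind *Serping1* (1 to 27 a library) and unstimulated *Cfb* (22 to 120), and counting error was not separated from the spread between libraries.

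Alternatives were DESeq2 1.42.0, its size factors in edgeR, limma-voom (limma 3.58.1) on unrounded counts, other filters, a replicate block, the compared libraries alone, each library left out, and library totals without TMM, the last chosen after seeing the data. Exon positions and lengths came from GENCODE for GRCm38. The script was tested on simulated data.

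Named with values were the members, other complement genes called between the genotypes or, with an average of 50 or more normalized counts, the 3 called with the largest rise and the 3 with the largest fall on stimulation, 10 transcription factors, the neighbours of the C1q cluster and *Cfb*, and the 5 genes nearest in profile, log2(normalized count + 0.5), to C1q, *Cfb* and *C3*. Results on some other genes are not reported here. The members and lists were chosen with earlier results of these data known.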

Additional observations from a re-analysis of the deposited data

Results flagged for a closer look

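*C3*, *Irf1* and *Cebpb* had a knockout effect of opposite direction in the 2 conditions, with libraries that did not overlap in either. Without stimulation 24.5% of all tested genes were lower in *Ncoa6*-KO cells without overlap and 18.6% higher. With LPS and MSU the shares were 22.7% lower and 24.7% higher. The share of all genes with opposite directions was not counted, so nothing is read from how many were flagged. For *C3* the effect was 1.09 higher on the log2 scale with LPS and MSU than without stimulation (-0.97 without stimulation, 0.12 with LPS and MSU); *C3* was chosen with its values known, so this difference was not tested here, and the value with LPS and MSU was smaller than its standard error. *Irf1*, an interferon-induced transcription factor gene, read 1973 and 1839 in *Ncoa6*-sufficient against 1544 and 1120.5 in *Ncoa6*-KO libraries without stimulation, and 17053 and 17184 against 20991 and 19331 with LPS and MSU. The difference between its effects was 0.75 on the log2 scale and was not called (adjusted p = 0.498, edgeR quasi-likelihood test with Benjamini-Hochberg adjustment), but was called in 2 of 15 alternatives, with no filter on low counts and with the replicate block (lowest adjusted p = 0.00188). *Cebpb*, the gene of C/EBP beta, read 782 and 709 against 638 and 646 without stimulation and 2154 and 2092 against 2176 and 3306 with LPS and MSU. Its difference was 0.58 and was not called either (adjusted p = 0.744, edgeR), except in 1 of 15 alternatives, with no filter (adjusted p = 0.0309).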

How the results depend on the processing

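The lower levels of the C1q chains, *Cfb* and *Cfp* in *Ncoa6*-KO cells kept their sign in both conditions under all 16 alternatives. Their libraries did not overlap between the genotypes, so leaving out 1 library could not turn that sign. The number of calls did not hold. The members were chosen with these values known, so nothing is read from their numbers of calls. DESeq2 called 496 of all tested genes without stimulation and 849 with LPS and MSU. Members called without stimulation numbered 2, and 6 with no filter on low counts and 6 with the replicate block; leaving out 1 library gave 0 to 3, with 0 without *Ncoa6*-sufficient medium library 1. With LPS and MSU 1 member was called, 3 by DESeq2, 6 with no filter and 6 with the replicate block, and 0 to 2 with 1 library left out (0 without *Ncoa6*-sufficient library 1 or *Ncoa6*-KO library 2 of that condition). Members called for the response ranged from 4 to 7 in both genotypes with 1 library left out, and library totals gave 4 in *Ncoa6*-KO cells. For the difference between responses, 0 members were called by edgeR, 1 by DESeq2, 2 with no filter, 1 with the replicate block and 0 to 1 with 1 library left out. Of the other complement genes, 0 were called without stimulation, 2 by DESeq2, 3 with no filter, 3 with the replicate block and 0 to 1 with 1 library left out; with LPS and MSU 3 became 0 in the 4 compared libraries alone and 0 to 3 with 1 left out. Their response calls ranged from 9 to 16 in *Ncoa6*-sufficient and 9 to 14 in *Ncoa6*-KO cells, and those for the difference from 0 to 0. Library totals reversed *C5ar1* (-0.38 in *Ncoa6*-sufficient, -0.31 in *Ncoa6*-KO cells), *Itgax* (-0.27, *Ncoa6*-sufficient) and *Calr* (-0.23, *Ncoa6*-KO). With that scaling 11853 of all 17625 tested genes were called for the response in *Ncoa6*-KO cells. Genes called over the whole table were 331 without stimulation (1152 with no filter, 1023 with the replicate block, 22 to 372 with 1 library left out), 632 with LPS and MSU (1611, 1532 and 58 to 761, and 139 in 4 libraries) and 0 for the difference (43 by DESeq2, 269 with no filter, 86 with the replicate block). Same-numbered libraries correlated at 0.0333 to 0.334 in their deviations over 11219 genes, above 0.1 in 5 of 6 pairs of groups, but each group has only 2 numbers and no source says what a number shares, so the pairing is not established. With the replicate block the difference between the genotypes' responses was also called for *Maf*, *Irf8* and *Irf1*. Apart from the scaling, which is its own construction, the cause was not tested. Depth limits *Serping1* and unstimulated *Cfb* (22 to 120 counts a library) most among the 9.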
